A study of Mus musculus with 12 samples.

Results

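Cytosolic ribosomal protein genes encode the proteins of the large (Rpl) and small (Rps) subunits of the ribosome that translates nuclear messages. They were taken as all array probes with a single annotated symbol of the Rpl or Rps numbered form, leaving out the Rps6k kinases. The rule found 57 genes of the 13840 with a probe of 1 symbol, or 67 of all 33012 probes, of which 47 probes (39 genes) belong to the large subunit and 20 probes (18 genes) to the small subunit. They were measured in MMT cells, an established line from a mouse mammary tumour, under 4 conditions. These were transfection with an siRNA against Pea3 (siPea3, 4 arrays), with one against Erm (siErm, 3 arrays) or with a control siRNA (siCtrl, 3 arrays), and no transfection (2 arrays). All groups come from 1 cell line, and the study's design text calls the replicates biological. Pea3 and Erm are older names of Etv4 and Etv5, transcription factors of the ETS family.

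Each cytosolic ribosome carries 1 copy of most of these proteins, and their genes are among the most strongly transcribed in dividing cells. Their messages typically begin with a run of pyrimidines, the terminal oligopyrimidine tract, through which growth signalling by mTOR governs their translation. Transcription of the set is known to be supported by Myc, and many ribosomal protein promoters carry sites for ETS factors. A few genes have close copies with more restricted use. Rpl3l is known from heart and skeletal muscle and Rpl39l from testis and some tumours, and Rps27l has been described as a p53 target in human cells.

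The start regions of 3 copy and parent pairs are shown first, because ETS factors bind DNA around a GGAA core and the pairs set close relatives beside each other. Each stretch runs 5′ to 3′ from 50 bases before to 30 bases after the annotated start in RefSeq on GRCm38.p6. Capitals mark CGGAAG or its reverse complement CTTCCG.
Rps27l, chr9:66946036-66946115, strand +: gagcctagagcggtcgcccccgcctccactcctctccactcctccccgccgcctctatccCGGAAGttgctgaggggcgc
Rps27, chr3:90213619-90213698, strand -: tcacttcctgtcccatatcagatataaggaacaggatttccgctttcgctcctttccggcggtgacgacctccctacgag
Rpl36al, chr12:69184038-69184117, strand -: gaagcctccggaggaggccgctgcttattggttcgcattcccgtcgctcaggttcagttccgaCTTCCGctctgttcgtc
Rpl36a, chrX:134585604-134585683, strand +: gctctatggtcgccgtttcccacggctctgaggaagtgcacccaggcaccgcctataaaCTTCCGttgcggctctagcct
Rpl39l, chr16:10170178-10170257, strand +: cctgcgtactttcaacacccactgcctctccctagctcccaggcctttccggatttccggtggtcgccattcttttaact
Rpl39, chrX:37085193-37085272, strand -: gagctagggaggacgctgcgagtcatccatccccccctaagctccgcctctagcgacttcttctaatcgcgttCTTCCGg

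The letters CGGAAG, searched on both strands of the 300 bases around each start (250 before and 50 after), were present for 33 of the 47 ribosomal protein genes that had such a window (70.2%). The share was 33.6% of the 7219 genes with a tested probe and 18.8% of all 27025 genes with a window. The longer form CCGGAAGT, which contains the shorter one, was found for 23.4% of the ribosomal protein genes, 9.2% of the genes with a tested probe and 4.3% of all genes. A run of at least 8 pyrimidines within 40 bases of the start was found for 87.2%, 31.4% and 32.6% of the same sets. These matches describe letters only. Of the stretches printed above, those of Rps27l, Rpl36al, Rpl36a and Rpl39 held CGGAAG. Those of Rps27 and Rpl39l did not, and these genes had it only farther upstream, outside the printed bases. Both printed stretches do hold the bare GGAA core, as its reverse complement TTCC. That core was neither marked nor counted, so a lack of CGGAAG is not a lack of the core.

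Signals are the deposited intensities, normalized within the assay and linear. A measurement counted as detected where the signal was at least 3 times its deposited noise. Of the 67 probes, 62 were detected on all 12 arrays, and 65 probes of 56 genes, 46 of the large and 19 of the small subunit, passed the filter of detection on at least 2 arrays. The muscle copy Rpl3l and a second Rps15a probe were detected on 0 arrays and were not tested. The only probe of Rpl37 was detected on 2 arrays, a second Rpl21 probe on 3 and a second Rpl34 probe on 4, so the values of these 3 are near background. Ribosomal protein genes have many processed pseudogenes of nearly the same sequence. A probe may therefore read several copies, which could not be checked without probe sequences.

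Between 11286 probes (siPea3 array 2) and 13836 probes were detected per array, and the ribosomal set had 62 to 64 detected probes on each. The upper quartile of all signals was 7.47 on siPea3 array 2 and 10.2 to 14.4 elsewhere, so that array stands apart. The targeted Etv4 probe gave 21.1, 20.6, 18.1 and 16.4 on the siPea3 arrays and 36.0, 43.2 and 31.5 on the siCtrl arrays, with no overlap. The Etv5 probe gave 1.77, 0.54 and 0.51 on the siErm arrays and 2.77, 1.16 and 0.99 on the siCtrl arrays, near background, and so does not check the Erm knockdown; it gave 23.7 and 1.05 on the untransfected arrays. Of 9 epithelial marker genes with a probe, Krt8, Krt18, Krt19, Krt14 and Cldn4 were detected on every array, and Epcam, Cdh1, Cldn7 and Krt5 on none. Their summed signal was 451 to 768 on siPea3, 755 to 991 on siErm, 841 to 1278 on siCtrl and 1755 to 1868 on untransfected arrays, and its part in the ribosomal results was not tested. The 12 measured markers of immune, endothelial and fibroblast cells summed to 20.4 to 56.1, with Ptprc, Cd3e, Adgre1 and Lum detected on none. Of the others, Pdgfra was detected on 11 arrays, Pdgfrb on 10, Cdh5 and Col1a1 on 6 each and Col3a1 on 3. Pecam1 was detected on 2 arrays, and Itgam and Kdr on 1 each. In RNA from whole cultures, fewer cells that express a gene and less of its RNA per cell cannot be told apart.

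As a share of all signal on an array, the 67 ribosomal probes took 6.81%, 8.82%, 6.87% and 6.67% in siPea3 cells, and 7.28%, 6.68% and 7.22% in siErm cells. The share was 7.12%, 6.88% and 7.02% in siCtrl cells and 7.61% and 7.81% in untransfected cells. Apart from siPea3 array 2, every transfected array lay below both untransfected arrays, and the 3 transfected groups overlapped one another. Large subunit probes summed to 2.13 to 2.21 times the small subunit probes in siCtrl cells and to 2.27 and 2.37 times in untransfected cells. The same ratio was 2.01 to 2.24 in siPea3 cells and 2.11 to 2.31 in siErm cells, so 1 siErm array reached the untransfected range. The share and the ratio are sums over the chosen probes and carry no test.

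**Figure D1:**
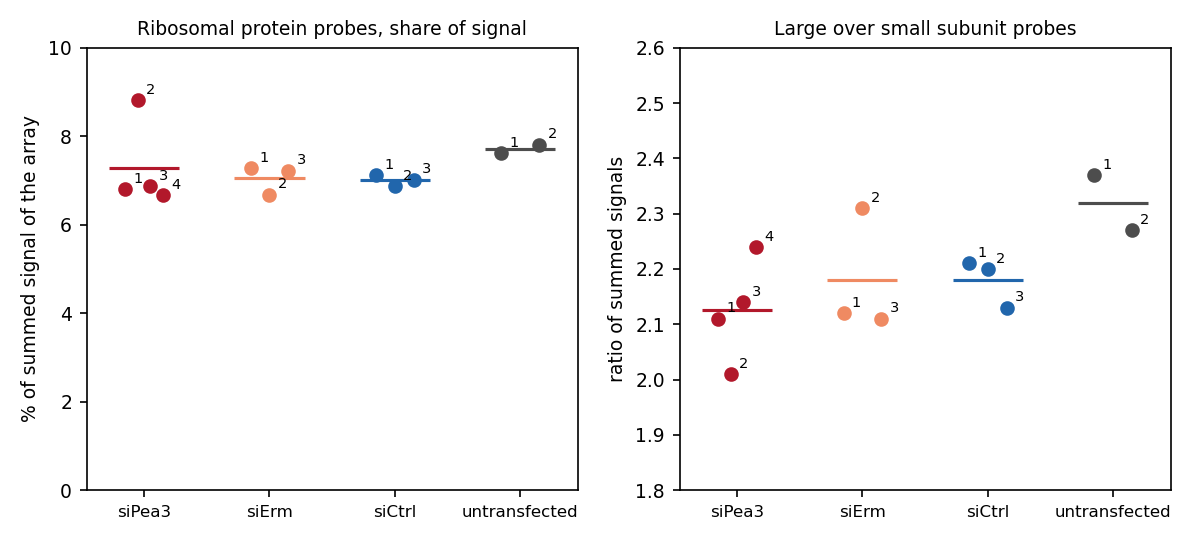
Left, the summed signal of the 67 ribosomal protein probes as % of all signal on an array; right, the ratio of summed large to summed small subunit signal, on an axis that does not start at 0. Points are arrays numbered by replicate and lines are group means; siPea3 array 2 stands at 8.82% and the untransfected arrays at 7.61% and 7.81%.

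The ribosomal protein probes moved together from array to array. Against each probe's own mean over the 12 arrays, 60 of 65 probes were lower on siPea3 array 4, with a median deviation of -0.45 on the log2 scale. On siPea3 array 2, 43 of 65 were higher (median 0.14), which set it apart from siPea3 arrays 1 and 3 (medians -0.14 and -0.19). Of the siErm arrays, the third had 61 probes lower (median -0.21), while the first and second had 42 and 45 higher. The siCtrl arrays were as uneven, with 57 probes higher on array 2 (median 0.35) and 57 lower on array 3 (median -0.16). Both untransfected arrays were high, with 60 and 57 probes above their own mean and medians of 0.41 and 0.22. The summed signal of all probes was lowest on siPea3 array 4 (1514632) and highest on siCtrl array 2 (2290504) and untransfected array 1 (2220471). On siPea3 array 2 (1769664) it lay between siPea3 arrays 1 and 3 (1789783 and 1745653). Whether equally bright probes of other genes shifted alike on each array was not tested. The within-group SD of a ribosomal probe was 0.26 on the log2 scale (median over 65 probes), against 0.51 over all 16724 tested probes. Bright probes vary less, and among probes with a mean log2 signal of at least 10 the median was 0.25 both for the 48 ribosomal probes and for all 406 probes. After the median of the ribosomal probes was taken off each array, the within-group SD of a ribosomal probe was 0.16.

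**Figure D2:**
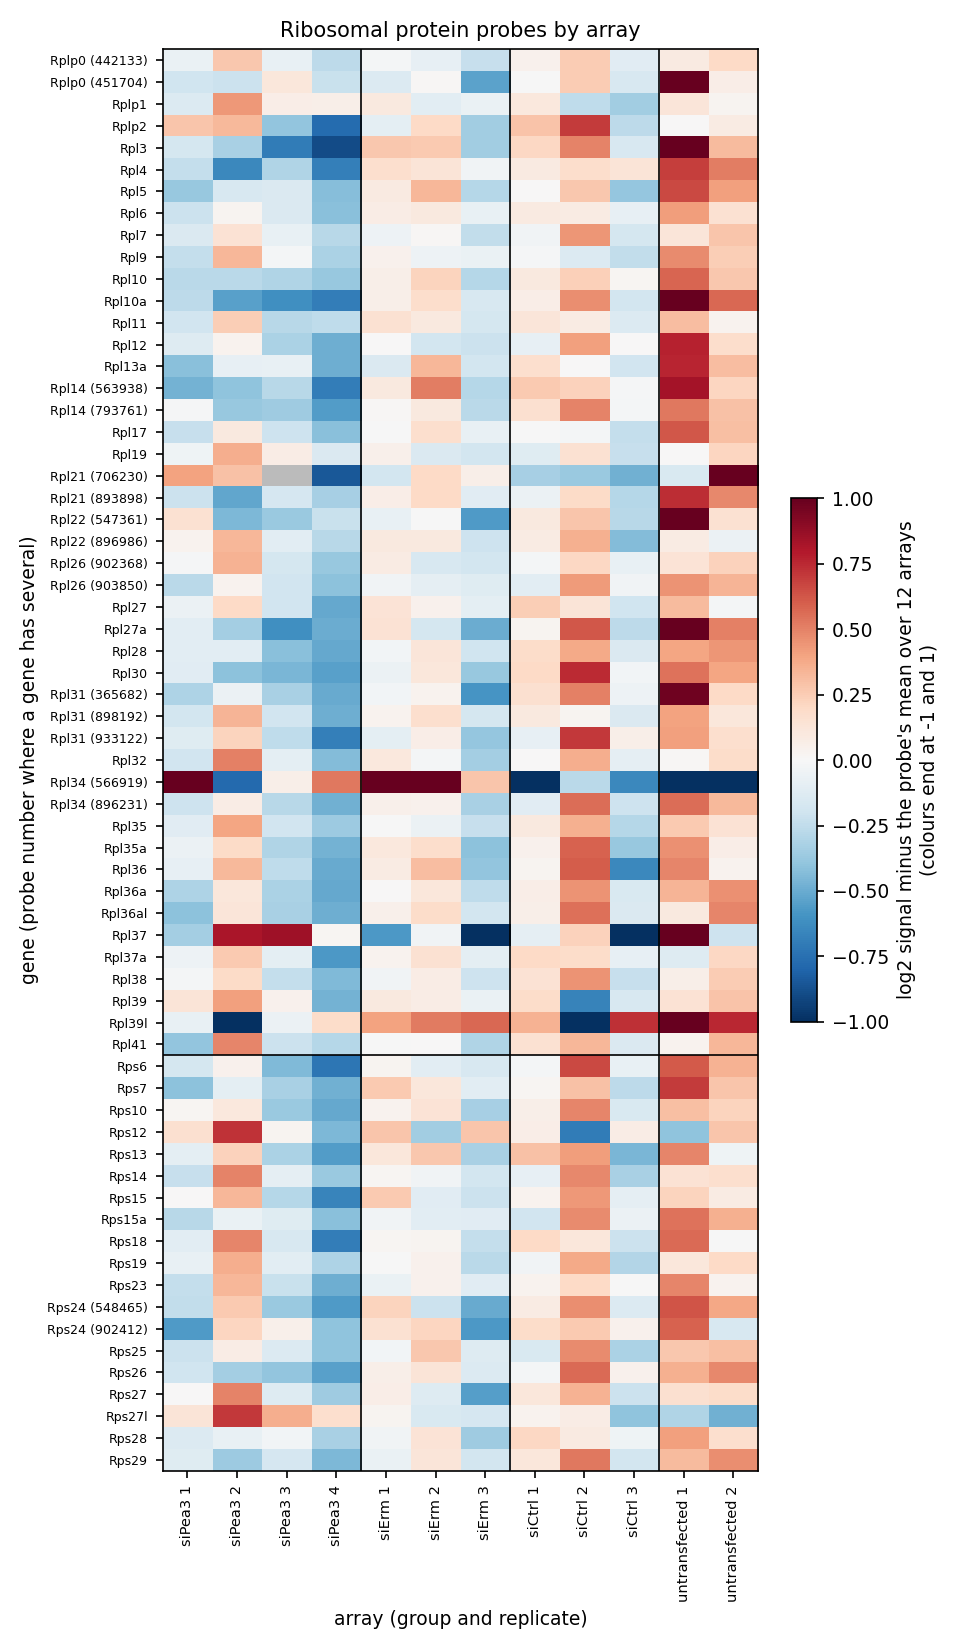
Each row is 1 tested ribosomal protein probe (large subunit above the horizontal line, small subunit below) and each column 1 array, ordered siPea3, siErm, siCtrl and untransfected. Colour is the log2 signal minus that probe's mean over 12 arrays and grey is a failed measurement; most rows share the colour of their column, as on siPea3 array 4, where 60 of 65 were lower, and Rps27l is higher on all 4 siPea3 arrays.

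Pea3 knockdown was compared first with the control siRNA. No ribosomal protein gene changed past the threshold: limma called 0 of 65 probes at an adjusted p under 0.05, where 0.0359% of all tested probes were called. At an unadjusted p under 0.05, 7 of the 65 probes (10.8%) differed, against 13.4% of all tested probes. All 7 were lower in siPea3 cells, as were 10.6% of all tested probes. The count was 1 without siCtrl array 2, 2 without siPea3 array 4, 3 without siPea3 array 3 and 4 without siCtrl array 1. It was 9 without siPea3 array 2 and 10 without siCtrl array 3. In those fits 1405 (without siCtrl array 2) to 2393 (without siCtrl array 3) of the 16724 tested probes had such a p. The ribosomal count was 12 with an intensity trend and 19 with array weights, beside 2487 and 4269 of all tested probes. With the replicate number as a block, 1 ribosomal probe had such a p, and 0 of all tested probes were called instead of 6. The signs leaned down, with 55 probes lower and 10 higher, but so did those of the whole array. The ribosomal median was -0.24 on the log2 scale and the median of all tested probes was -0.24, with 33 ribosomal probes below it and 32 above. The lean itself depends on the scaling. With arrays scaled to the probes detected on all arrays, 43 ribosomal probes were higher and 22 lower, and quantile normalization gave 27 higher and 38 lower. Without siPea3 array 2, which stands apart, 51 of 65 probes lay below the median of all probes and the ribosomal median was lower than it by 0.16 (relative value -0.16).

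Every siPea3 array lay below every siCtrl array for 8 of the 65 probes (12.3%), against 12.4% of all tested probes. They were the large subunit probes of Rpl3, Rpl4, Rpl10, Rpl10a, Rpl30, 1 of the Rpl14 and 1 of the Rpl31 probes, and the small subunit gene Rps26. Every siPea3 array lay above every siCtrl array for 1 probe, that of Rps27l, against 2.84% of all tested probes.

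Rpl4, which lines part of the peptide exit tunnel, had signals of 32.7, 24.7, 31.3 and 23.9 in siPea3 cells, against 40.9, 43.3 and 42.2 in siCtrl cells. The groups did not overlap, and the log2 difference was -0.60 ± 0.21 (SE, adjusted p = 0.29, limma), the smallest p of the set. This only probe of Rpl4 was detected on all arrays, but it was much dimmer than the other probes named here. Rpl10a, a protein of the L1 stalk, had 763, 626, 597 and 567 in siPea3 cells, against 957, 1262 and 806 in siCtrl cells. All siPea3 values were again below all siCtrl values, by -0.64 ± 0.24 on the log2 scale (adjusted p = 0.312). Rpl3, which reaches close to the peptidyl transferase centre, had 1362, 1225, 944 and 828 in siPea3 cells and 1778, 2170 and 1375 in siCtrl cells. Its lowest siCtrl array was barely above its highest siPea3 array, and the log2 difference was -0.71 ± 0.30 (adjusted p = 0.344). Rpl30 had 1208, 981, 950 and 897 in siPea3 cells and 1502, 2195 and 1282 in siCtrl cells, with siCtrl array 2 far above the other arrays of both groups (log2 -0.69 ± 0.25, adjusted p = 0.296). Rps26, which contacts the message near the exit channel of the small subunit, had 2467, 2249, 2159 and 1950 in siPea3 cells and 2805, 4195 and 2924 in siCtrl cells. It too was separated, by -0.57 ± 0.22 (adjusted p = 0.319). Rpl14, a large subunit protein, has 2 probes, whose log2 differences were -0.62 ± 0.26 and -0.54 ± 0.23 (adjusted p = 0.337 and 0.348). These genes were named for their small p among the 65, and none passed.

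Rps27l went the other way. Its signals were 2121, 3152, 2490 and 2171 in siPea3 cells, 1971, 1743 and 1723 in siErm cells, 1979, 2044 and 1467 in siCtrl cells, and 1571 and 1385 in untransfected cells. All 4 siPea3 arrays lay above all other arrays, siPea3 array 2 highest, and both untransfected arrays lay below all siErm arrays. Against siCtrl cells the log2 difference was 0.44 ± 0.23 (adjusted p = 0.419, and 0.172 to 0.732 over 19 alternative settings), so it did not pass. Its size was 0.29 to 0.75 over those settings. Relative to the median ribosomal probe of the same array, Rps27l deviated by 0.27, 0.56, 0.56 and 0.62 in siPea3 cells and by -0.04, -0.27 and -0.24 in siCtrl cells. The parent gene Rps27, a zinc finger protein of the small subunit, had 3087, 4329, 2808 and 2408 in siPea3 cells, against 3336, 3909 and 2655 in siCtrl cells. The Rps27 groups overlapped (log2 -0.08 ± 0.27, adjusted p = 0.916), and the 2 copies were not tested against each other.

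**Figure D3:**
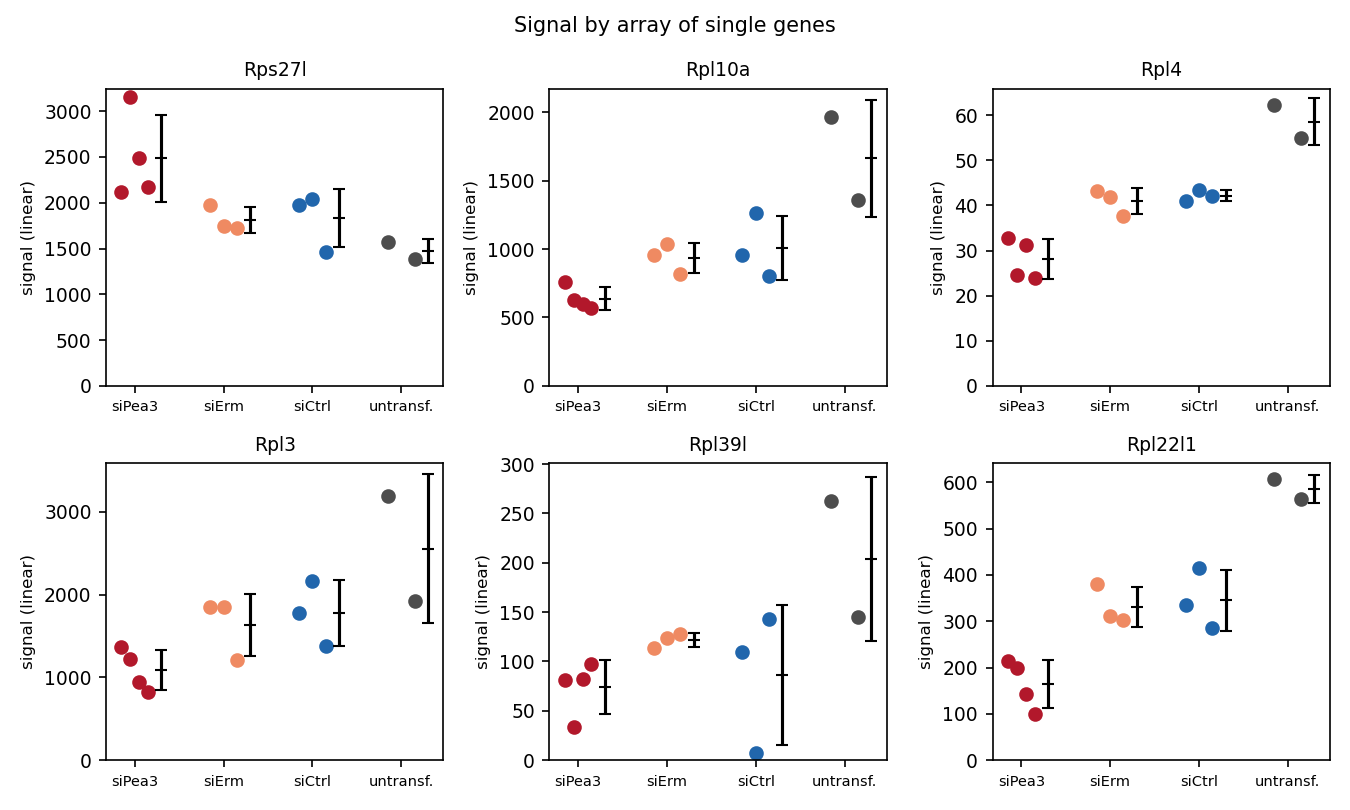
Linear signal of 6 genes on each array (points), by group in the order siPea3, siErm, siCtrl and untransfected, with group mean and SD as bars (n = 4, 3, 3 and 2). The siPea3 arrays are highest for Rps27l and lowest for Rpl10a and Rpl4, and siCtrl array 2 is far below the other arrays for Rpl39l, at 6.86; each panel starts at 0 and has its own scale.

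Erm knockdown was compared with the same siCtrl arrays, which the siPea3 comparison also uses. No ribosomal protein gene passed the test: limma called 0 of 65 probes, and 0% of all tested probes. At an unadjusted p under 0.05, 1 ribosomal probe differed (1.5%), against 2.03% of all tested probes. It was higher in siErm cells, as were 1.08% of all tested probes. The signs were 48 lower and 17 higher, with a ribosomal median of -0.12 and a median of all tested probes of -0.05. They were 34 lower and 31 higher without siCtrl array 2 (median 0.00), and 35 and 30 without siErm array 3 (median -0.01). No siErm array set lay wholly below siCtrl for any ribosomal probe, while 2.89% of all tested probes did so, and 2 near-background probes, of Rpl34 and Rpl21, lay wholly above, against 2.57%. The 1 probe was the second Rpl34 probe, with 3.18, 2.63 and 1.48 in siErm cells against 0.55, 1.01 and 0.78 in siCtrl cells. It was not detected on siErm array 3 or on any siCtrl array, so no fold is given. The other Rpl34 probe, detected on all arrays, had 1469, 1462 and 1129 in siErm cells and 1311, 2087 and 1224 in siCtrl cells and overlapped (log2 -0.16 ± 0.27, adjusted p = 1). Rpl10a and Rpl4, which had stood apart in siPea3 cells, overlapped here. Rpl10a had 953, 1035 and 819 in siErm cells, inside the siCtrl range of 806 to 1262. Rpl4 had 43.2, 41.9 and 37.6 in siErm cells and differed from siCtrl cells by -0.04 ± 0.22 on the log2 scale. Rps27l differed by 0.00 ± 0.25, Rpl30 by -0.42 ± 0.27 and the dimmest Rpl31 probe by -0.40 ± 0.29, each with an adjusted p of 1. Half-widths of the 95% intervals had a median of 0.58 on the log2 scale, or 1.5-fold. For a typical probe, differences below that size could not be told from 0 even before adjustment, and the adjusted threshold is stricter.

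The 2 knockdowns were then set against each other. Limma called 0 of 65 ribosomal probes between siPea3 and siErm cells, against 0.00598% of all tested probes, and 3 (4.6%) had an unadjusted p under 0.05, against 10.3%. The 3 were Rpl4, Rpl10a and a Rpl14 probe, all lower in siPea3 cells, as were 7.98% of all tested probes. Their log2 differences were -0.55 ± 0.21, -0.55 ± 0.24 and -0.57 ± 0.26 (adjusted p = 0.427, 0.476 and 0.485). Rpl4 and Rpl10a lay lower on all 4 siPea3 arrays than on all 3 siErm arrays, and the Rpl14 probe overlapped. In all, 5 ribosomal probes (7.7%) lay wholly below, those of Rpl39l, Rps26 and the bright Rpl21 probe besides, against 10.9% of all tested probes. Over the set, 51 probes were lower and 14 higher, yet 42 lay above the median of all tested probes, which was -0.20. Scaled to the probes detected on all arrays, 51 ribosomal probes were higher and 14 lower. The ribosomal median relative to all probes was 0.07, and -0.09 without siPea3 array 2. Without siPea3 array 4, 37 probes were lower and 28 higher (median -0.02). Rps27l was higher in siPea3 cells by 0.44 ± 0.23 (adjusted p = 0.528), the 1 ribosomal probe with all siPea3 arrays above all siErm arrays, against 2.73% of all tested probes.

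The control transfection was compared with no transfection. Ribosomal protein genes were mostly lower in siCtrl cells, with 61 of 65 probes lower and 4 higher, but limma called 0 of them, against 1.02% of all tested probes. At an unadjusted p under 0.05, 2 probes differed (3.1%, against 11.4%), both lower, as were 5.13% of all tested probes, and with the replicate number as a block 1 did. The count was 0 with scaling to the median of all probes and 8 with an intensity trend, beside 1645 and 2018 of the 16724 tested probes. The lean was smaller after quantile normalization (43 lower and 22 higher) and without siCtrl array 3 (41 lower and 24 higher, with a median of -0.14). The ribosomal median was -0.24 and the median of all tested probes -0.06. Thus 56 of the 65 probes lay below the median of all probes, and the ribosomal median relative to it was -0.19. That relative value was -0.23 to -0.14 over 17 alternative settings, below 0 in each, but not all of these could move it. Scaling whole arrays, an intensity trend and a fit of only these 2 groups leave it at -0.19 by construction. The probes move together from array to array, so they are not 65 separate observations. On single siCtrl arrays the ribosomal median lay above the array median by 7.451, 7.853 and 7.407 on the log2 scale. On the untransfected arrays it did so by 7.499 and 7.737. The groups overlapped, and the SD of this distance was 0.246 for siCtrl and 0.168 for untransfected arrays. Pooled over all 4 groups the within-group SD was 0.312, with siPea3 the most spread (0.449). All siCtrl arrays lay below both untransfected arrays for 13 ribosomal probes (20%), against 14.2% of all tested probes. The 13 were all of the large subunit, 28.3% of its 46 tested probes, and 0 of the 19 small subunit probes did so. They included the near-background Rpl21 probe (0.83, 0.81 and 0.75 against 0.94 and 2.81). For Rpl39l, also among them, the highest siCtrl array (142.67) was barely below the lowest untransfected array (145.46). No ribosomal probe lay wholly above, against 12.6% of all tested probes. The median relative to all probes was -0.22 for large and -0.13 for small subunit probes, and no test was made of that difference.

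Rpl21 had, on its bright probe, 2585, 3077 and 2199 in siCtrl cells, against 4490 and 3753 in untransfected cells. The groups were apart, by -0.66 ± 0.26 on the log2 scale (adjusted p = 0.364, limma). Rpl10a had 957, 1262 and 806 in siCtrl cells, against 1967 and 1358 in untransfected cells, also without overlap (log2 -0.72 ± 0.29, adjusted p = 0.379). Rpl17 had 2361, 2328 and 2010 in siCtrl cells, against 3644 and 2910 in untransfected cells, again apart (log2 -0.55 ± 0.26, adjusted p = 0.451). Rpl5, which carries 5S ribosomal RNA into the large subunit, had 2741, 3295 and 2093 in siCtrl cells, against 4323 and 3638 in untransfected cells (log2 -0.57 ± 0.29, adjusted p = 0.487). Its partner in that complex, Rpl11, overlapped between the groups (log2 -0.15 ± 0.27). Rps7, a small subunit protein that, like Rpl5 and Rpl11, binds Mdm2, also overlapped (log2 -0.47 ± 0.27, adjusted p = 0.544). Rps27l was 1 of the 4 probes that were higher in siCtrl cells, by 0.30 ± 0.27 (adjusted p = 0.704). Rpl10a, Rpl4 and Rps27l thus have the untransfected arrays at one end and the siPea3 arrays at the other. The siErm and siCtrl arrays overlapped for each of the 3 genes, and the siCtrl and untransfected arrays overlapped for Rps27l but not for Rpl10a or Rpl4.

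**Figure D4:**
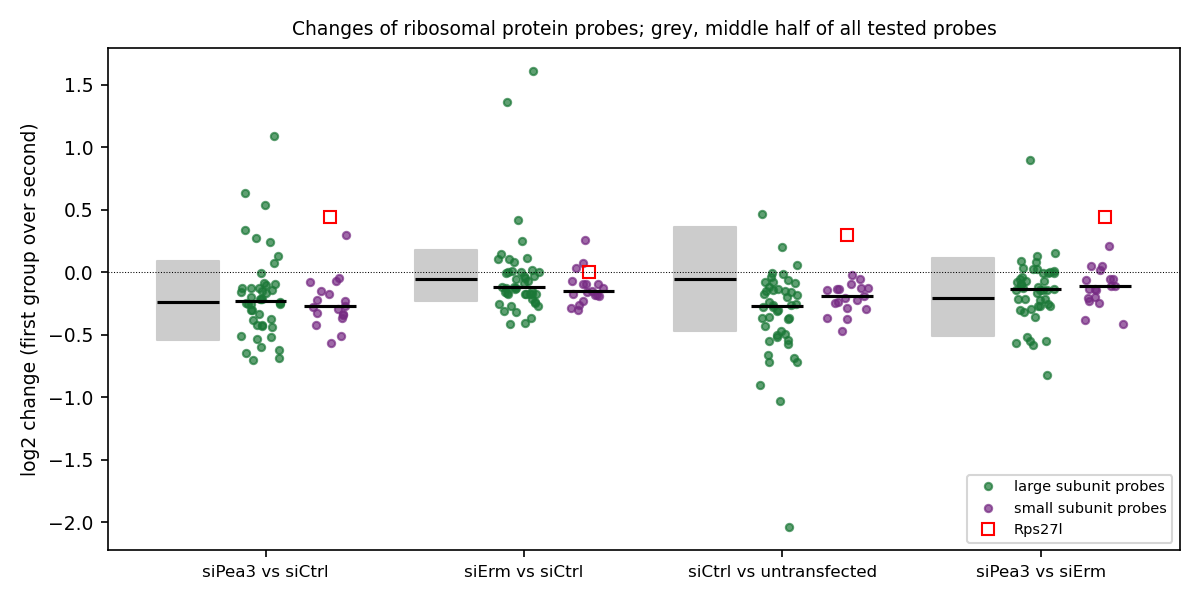
Log2 change of each tested ribosomal protein probe in 4 comparisons, first-named group over second; green points are large and purple points small subunit probes, black lines are medians, and the grey box spans the middle 50% of all tested probes. The ribosomal median equals that of all probes for siPea3 against siCtrl (-0.24 each) and lies below it for siCtrl against untransfected (-0.24 and -0.06); the red square is Rps27l.

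Over the 4 groups at once, a moderated F test called 0 of 65 ribosomal probes, against 1.74% of all tested probes, and 9 (13.8%) had an unadjusted p under 0.05, against 16.4%. Rpl10a (adjusted p = 0.0963) and Rpl4 (adjusted p = 0.115) came closest, followed by the near-background Rpl34 probe (0.201) and Rpl27a (adjusted p = 0.208). These calls rested on the setting. Rpl10a and Rpl4 passed when testing was limited to probes detected on all arrays, where 2 of 62 ribosomal probes were called, against 6.5% of all probes. Rpl10a alone passed with an intensity trend (3.39% of all probes called) and Rps27l alone after quantile normalization (adjusted p = 0.0338; 3.4% called). Rpl10a, Rpl3, Rpl4 and the near-background Rpl34 probe passed with array weights, where 5.96% of all probes were called. That Rpl34 probe was detected only on siPea3 and siErm arrays, so it entered testing through groups where it was higher, and its call carries no weight.

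The P stalk, formed by Rplp0, Rplp1 and Rplp2, recruits elongation factors, and its 4 probes showed 0 calls in any comparison. Rplp1 had 4023, 5963, 4632 and 4608 in siPea3 cells, against 4739, 3695 and 3459 in siCtrl cells, overlapping and higher by 0.28 ± 0.22 (adjusted p = 0.583). Rplp2 was lower by -0.38 ± 0.33 (adjusted p = 0.62), and the 2 Rplp0 probes differed by -0.09 ± 0.21 and -0.16 ± 0.27. Of 9 listed genes whose proteins bind Mdm2, 6 had a tested probe (Rpl5, Rpl11, Rpl26, Rps7, Rps27 and Rps27l), and 0 of their 7 probes had an unadjusted p under 0.05 in any comparison. In siPea3 against siCtrl cells 6 of the 7 were lower and Rps27l was higher.

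Among the copies, Rpl36al and its parent Rpl36a, large subunit proteins at the exit site for transfer RNA, ran in parallel. Rpl36al had 714, 1031, 759 and 677 in siPea3 cells, against 988, 1389 and 861 in siCtrl cells. Rpl36a had 1978, 2649, 1965 and 1715 in siPea3 cells, against 2567, 3355 and 2203 in siCtrl cells. Both had their highest siCtrl value on array 2 and overlapped between groups (log2 -0.43 ± 0.26 for Rpl36al and -0.38 ± 0.24 for Rpl36a). Rpl39l had 81.7, 34.1, 82.7 and 97.6 in siPea3 cells, 114, 124 and 128 in siErm cells, 109, 6.86 and 143 in siCtrl cells, and 263 and 145 in untransfected cells. The value of siCtrl array 2 was far below the others, although its deposited coefficient of variation was 0.12 and the probe counted as detected. On that array Rpl39, the parent gene at the peptide exit tunnel, had 2416 against 4356 and 3431 on the other siCtrl arrays. The log2 difference of Rpl39l between siErm and siCtrl cells, 1.36 ± 0.92, became -0.04 without siCtrl array 2, and the difference between siPea3 and siErm cells, -0.82 ± 0.86 (adjusted p = 0.737), did not pass.

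Where 1 gene had several probes, they mostly had the same sign. The 3 Rpl31 probes differed by -0.51 ± 0.27, -0.13 ± 0.24 and -0.44 ± 0.28 between siPea3 and siCtrl cells, and the 2 Rps24 probes by -0.37 ± 0.28 and -0.34 ± 0.30. The 2 Rpl26 probes gave -0.09 ± 0.23 and -0.30 ± 0.22, and the 2 Rpl22 probes -0.25 ± 0.31 and 0.00 ± 0.25. The probes of Rpl21 and Rpl34 had opposite signs, with the near-background probe of each higher in siPea3 cells (0.34 ± 0.44 and 1.09 ± 0.52) and the bright probe lower (-0.26 ± 0.22 and -0.30 ± 0.26).

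Genes of the ribosome that the symbol rule does not reach gave 1 larger difference. Rpl22l1, a copy of Rpl22 whose message the Rpl22 protein is known to restrain in mouse, had 215, 199, 143 and 101 in siPea3 cells and 381, 310 and 302 in siErm cells. It had 335, 415 and 285 in siCtrl cells and 606 and 564 in untransfected cells. All siPea3 arrays lay below all others, and the untransfected arrays lay above all others. The log2 difference was -1.11 ± 0.29 between siPea3 and siCtrl cells (unadjusted p = 0.00267, adjusted p = 0.2, limma) and -1.07 ± 0.29 between siPea3 and siErm cells (adjusted p = 0.308), so neither passed. Fau and Rps3a1, a precursor and a core protein of the small subunit, overlapped between siPea3 and siCtrl cells.

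Genes that work with the ribosome were read from lists chosen by function, and 0 were called by limma in any comparison. Between siPea3 and siCtrl cells, 13 of 15 probes of elongation factors and related genes were lower, 5 of them at an unadjusted p under 0.05, where 69.4% of all tested probes were lower and 10.6% were so at that p. Their median was -0.42, against -0.24 over all tested probes. This elongation list also holds Npm1, Nap1l1, Eif4b and Pabpc1, which are not elongation factors, and an Npm1 probe is among the 5. Of 43 probes of nucleolar assembly factors, 34 were lower, 6 of them at an unadjusted p under 0.05, near those shares, with a median of -0.27. Initiation factors (26 probes) had a median of -0.20 and RNA polymerase I genes (13 probes) one of -0.22. The 65 probes of mitochondrial ribosomal proteins, which serve the separate ribosome of that organelle, had a median of -0.14. Between siCtrl and untransfected cells, the assembly factors, the elongation list and the initiation factors lay below the median of all probes by medians of -0.28, -0.20 and -0.20. The cytosolic ribosomal proteins stood at -0.19 on that scale and the mitochondrial ones at 0.08. Myc, a regulator of the set, had 156, 303 and 154 in siCtrl cells, against 983 and 223 in untransfected cells, so that 1 untransfected array was far above all others and the groups overlapped (log2 -1.27 ± 0.53, adjusted p = 0.393).

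The differences were also set beside the presence of CGGAAG around the start. Between siPea3 and siCtrl cells the median log2 difference was -0.25 for the 37 tested probes of 33 ribosomal genes with the letters and -0.24 for the 17 probes of 13 genes without them. Between siErm and siCtrl cells the medians were -0.15 and -0.12. For siPea3 against siErm cells they were -0.14 and -0.11, and for siCtrl against untransfected cells -0.22 and -0.28. Rps27l, Rpl36al, Rpl36a and Rpl39, whose printed stretches hold the letters, had log2 differences of 0.44, -0.43, -0.38 and 0.24 between siPea3 and siCtrl cells. Rps27l has a further annotated start, not printed, whose stretch also holds the letters.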

How the data were processed

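RNA of 12 MMT cultures was amplified by reverse transcription and in vitro transcription, labelled with digoxigenin and hybridised to 1-colour Applied Biosystems arrays, per the labels' protocols. Sample titles gave the groups. Each probe's deposited intensity is an assay normalized signal, per the file headers (any correction of background or scaling of arrays: not given in the sources used here). Noise was deposited as a coefficient of variation, a ratio, which was inverted to give signal over noise. The deposited status code, a score, marked failed measurements, which were left out (1 of 804 values of the ribosomal probes). Probes were named through the supplied annotation table, with 14411 of 33012 having 1 symbol. No build is named for the arrays, so probes have no positions. Promoter windows came from RefSeq.

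Signals were taken to log2. Probes at a ratio of at least 3 on at least 2 arrays were kept and 16724 were tested. Group means were contrasted in limma 3.58.1 under R 4.3.3 (lmFit, eBayes, 4 coefficients, 8 residual and 3.06 prior degrees of freedom), with Benjamini-Hochberg adjustment over all tested probes and calls at an adjusted p under 0.05. Errors are SE for log2 differences and SD for signals. The fit was tested on simulated data. Members, lists and tests were chosen with earlier results of these data known. Named genes are the members with the smallest p (4 per comparison), the 2 highest and 2 lowest changes, listed copies, stalk and Mdm2 genes, genes with several probes, and up to 3 genes of other lists. Some members whose groups did not overlap, Rpl10 and Rpl5 among them, were added with their values in view. Rpl6, Rpl9, Rpl13a and Rpl28, which did not overlap between siCtrl and untransfected cells, were counted but are not described.

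Replicate numbers recur between groups. Same-numbered arrays deviated together for siPea3 and siCtrl (r = 0.115, 0.321 and 0.164 over 16364 probes) and for siErm and siCtrl (0.275, 0.312 and 0.225). Unlike numbers reached 0.319 for siPea3 and siCtrl (siPea3 array 4 with siCtrl array 3) and 0.051 for siErm and siCtrl. Same-numbered arrays gave only 0.083 and 0.068 for siCtrl and untransfected. They gave -0.042, 0.042 and 0.08 for siPea3 and siErm, where unlike numbers reached 0.167. A pairing by number is therefore uncertain, and the labels name none. The reported fit has no block, and the replicate block is an alternative. Alternatives covered normalization, filter, probe choice, intensity trend, array weights, the replicate block and leaving out arrays; scaling to the ribosomal probes was added after seeing the data. Plots used matplotlib 3.10.9 (Python 3.11.15).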

Additional observations from a re-analysis of the deposited data

Results flagged for a closer look

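Among 15 sets of 4 siPea3 values tested, 2 had an array whose gap to the nearest other exceeded the 95% limit for a single far value, and chance gives about 1 in 20. The ribosomal protein probes took 8.82% of the summed signal on siPea3 array 2, with siPea3 arrays 1, 3 and 4 at 6.67% to 6.87%, a gap of 0.907 of the whole range. That array also had the fewest detected probes (11286) and the lowest upper quartile (7.47), and the part of either in the share was not tested. Rpl39l had a signal of 34.1 (34.07 as deposited) on siPea3 array 2 and 81.7 to 97.6 on the others, a gap of 0.831 of the range.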

How the results depend on the processing

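The 4 pairwise counts of called ribosomal probes stayed at 0 under all 17 to 19 alternatives per comparison, leaving out each array included. Among the 65 relative medians, those under scaling of whole arrays could hardly move. All 65 moved by less than the within-group spread between arrays (0.31), pooled over the 4 groups. That spread is larger than every relative median in size, so a change of sign can fall within it, and staying inside it does not show stability. The count over the 4 groups was 0, and became 1 after quantile normalization (3.4% of all probes called), 2 with probes detected on all arrays (6.5%), 1 with an intensity trend (3.39%) and 4 with array weights (5.96%), against 1.74% as reported. The calls with array weights included the near-background Rpl34 probe. Leaving out any single array left the count over the 4 groups at 0. The replicate block gave 0 ribosomal calls in every comparison and over the 4 groups. It lowered the calls over all probes to 0 for siPea3 against siCtrl (6 without it), 100 for siCtrl against untransfected (171) and 0 for siPea3 against siErm (1), and to 45 over the 4 groups (291). Between siErm and siCtrl cells the sign of Rpl39l turned without siCtrl array 2 (-0.037; up to 2.152 without other single arrays). That of Rps27l, -0.001 as reported, turned after quantile normalization (0.118), scaling to detected probes (0.042) or to ribosomal probes (0.072), without siPea3 and siCtrl arrays 2 (0.086), and without single siErm or siCtrl arrays (up to 0.086; from -0.153 over all arrays left out). The cause was not tested. Relative medians ranged from -0.171 to 0.096 for siPea3 against siCtrl, -0.13 to 0.002 for siErm against siCtrl, -0.23 to -0.138 for siCtrl against untransfected and -0.093 to 0.174 for siPea3 against siErm. With 2 to 4 arrays a group, the median 95% interval of a ribosomal probe reached 0.54 to 0.65 either side on the log2 scale.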

Other observations

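On siCtrl array 2, where Rpl39l had a signal of 6.86, the probes of 2 other genes of translation were as far below the rest of their group; they were chosen after their values were seen. Ncl (nucleolin, a nucleolar factor of ribosome assembly) had 4.91 on that array, against 174 and 253 on the other siCtrl arrays. Eif5a, a translation factor, had 3.92 there, against 344 and 252. On siPea3 array 2 the same 3 genes also had their lowest siPea3 values, with 34.1 for Rpl39l, 23.3 for Ncl and 48.6 for Eif5a. Over the other siPea3 arrays the ranges were 81.7 to 97.6 for Rpl39l, 85.6 to 149 for Ncl and 167 to 199 for Eif5a. Most ribosomal probes were instead above their own mean on siCtrl array 2 (57 of 65) and on siPea3 array 2 (43 of 65).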
